A study of Mus musculus with 6 samples.

Results

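The miR-143 and miR-145 hairpins were followed in skin of mice irradiated with ultraviolet A (UVA) light on alternate days over 4 months, to 89.88 J/cm2 in total, and in skin of non-irradiated mice. Small RNA of whole skin was sequenced in 3 libraries per group. The sources used here give no strain, age, sex or skin site and do not say whether replicates come from separate animals, so p-values reflect no more than the spread among these samples. The members were the rows named miR-143, miR-145a or miR-145b once the arm was dropped, which gave 5 of the 1480 rows of the count table: mmu-miR-143-3p, mmu-miR-143-5p, mmu-miR-145a-5p, mmu-miR-145a-3p and mmu-miR-145b, called by these names without the species prefix from here on. Of these, 4 passed the filter on low counts and were tested, and miR-145b did not pass.

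A miRNA hairpin is cut into a short duplex, from which the guide strand is kept in an Argonaute protein while the passenger strand is mostly degraded. miR-143 and miR-145 are known as abundant miRNAs of smooth muscle, where serum response factor and myocardin drive their shared primary transcript and where they favour the contractile state, miR-145 in part by repressing Klf4. In skin such cells lie in vessel walls and in the arrector pili muscles. The usual guides are miR-143-3p and miR-145a-5p, and miR-143-5p and miR-145a-3p are the usual passengers.

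In GRCm38, Mir143 lies on chromosome 18 at 61649196 to 61649258 and Mir145a at 61647825 to 61647894, both on the minus strand. Mir143 comes first in the direction of transcription and 1301 bases separate them. RefSeq places both within the long non-coding RNA gene Carmn (61645878 to 61665538), whereas the GENCODE M21 model of Carmn, also on the minus strand, ends 366 bases before Mir143 in the direction of transcription and holds neither hairpin. Mir145b lies 7.37 Mb away on the same chromosome, at 69022199 to 69022273 on the minus strand. The mature sequences are 21 nucleotides long for both arms of miR-143 and for miR-145b, 23 for miR-145a-5p and 22 for miR-145a-3p. miR-145b has the seed of miR-145a-5p and its first 17 bases, and differs from it by 4 edits. No other row of the table lies within 2 edits of a member. miR-143-3p and miR-145a-3p share their seed with no other row, and miR-143-5p shares its seed with miR-1930-3p.

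Between 8194504 and 12817972 miRNA reads were counted per UVA library, and between 7653819 and 17192811 per non-irradiated library. All reads, as totalled by the authors, came to 20472250 to 21896213 per UVA library and 26904012 to 30459804 per non-irradiated library. These totals separate the groups, and any batch behind them and the irradiation cannot be told apart. Each UVA library had 579 to 591 rows with 1 to 9 reads, whereas non-irradiated replicates 1, 2 and 3 had 21, 34 and 299. Whether low counts were removed from some libraries is not given. Any such removal would also bear on the shares of all tested miRNAs set beside the members below, through rows with few reads. The keratinocyte miRNA miR-203-3p, a check of the tissue label, had 50936 ± 24473 counts-per-million (CPM) in UVA skin, against 42457 ± 5238 CPM without irradiation (mean ± SD, n = 3 each). Another epithelial miRNA, miR-205-5p, was unequal, at 5256 ± 2057 CPM in UVA skin and 672 ± 196 CPM without irradiation. Its log2 fold change was 2.97 (edgeR adjusted p = 0.0045).

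The first comparison asked whether the guide strands differed between irradiated and non-irradiated skin. miR-143-3p, the dominant product of the cluster, fell in UVA skin. Its level was 30303, 33703 and 27997 CPM in UVA replicates 1, 2 and 3, against 50752, 147832 and 78150 CPM in non-irradiated replicates 1, 2 and 3, where CPM is scaled by TMM, a method that sets libraries equal over the bulk of the tested miRNAs. The UVA libraries lay close together below every non-irradiated library, while the non-irradiated libraries spread widely and replicate 2 was the highest. UVA skin averaged 30668 ± 2871 CPM and non-irradiated skin 92245 ± 50051 CPM (SD, n = 3 each), which gave a log2 fold change of -1.59 with an SE of 0.42 (edgeR adjusted p = 0.0255). Lower calls made up 8.22% of the 499 miRNAs tested, and calls in either direction 21.8%. In 48.3% of them the groups did not overlap in CPM, in either direction. As this is bulk tissue, fewer cells of a type and less RNA per cell cannot be told apart.

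**Figure D1:**
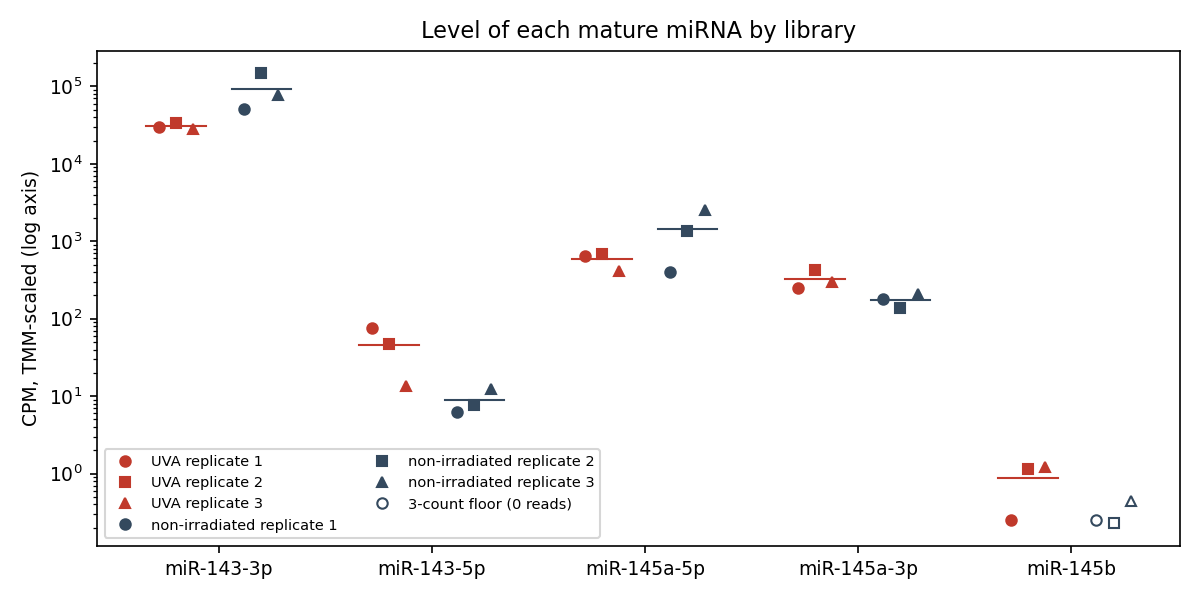
Level of each member in CPM (log axis) by library, with UVA libraries left of non-irradiated ones and a bar at each group mean. miR-143-3p lies lower and miR-143-5p higher in all 3 UVA libraries, miR-145a-5p overlaps, and open symbols mark the 3-count floor of non-irradiated libraries without a miR-145b read.

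miR-143-3p took 3.71%, 4.09% and 3.33% of all miRNA reads in UVA replicates 1, 2 and 3, against 4.20%, 11.3% and 7.01% in the non-irradiated ones, with exact 95% intervals of at most ±0.018 percentage points. It was the 8th, 11th and 10th most abundant row in UVA replicates 1, 2 and 3 and the 5th, 3rd and 4th in the non-irradiated ones. The 4 members first named (all but miR-145a-3p, and with miR-145b from outside the cluster) together made up 3.79% ± 0.40 of miRNA reads in UVA and 7.61% ± 3.58 in non-irradiated skin (SD, n = 3 each). A 2-sided exact permutation test on this share gave p = 0.1, the lowest value possible with 3 libraries per group. miR-143-3p alone averaged 3.71% in UVA and 7.49% in non-irradiated skin, so the summed share describes little beyond that row.

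The fall of miR-143-3p depended on what the libraries were scaled to. In the authors' RPM, which scales to all reads of a library, it stood at 21695, 21788 and 13344 RPM in UVA replicates 1, 2 and 3 and at 20715, 63545 and 19948 RPM in the non-irradiated ones. On this scale the groups overlapped, and only non-irradiated replicate 2 stood apart. Scaled to the authors' totals, it changed by -0.87 on the log2 scale (SE 0.51, edgeR adjusted p = 0.194). Scaled to the miRNA reads of each library without TMM factors (library size alone), the change was -1.01 (SE 0.41, edgeR adjusted p = 0.0852). The scalings also moved the median over the tested miRNAs, whose log2 fold change was 0.27 with TMM, 0.81 by library size and 1.12 by the authors' totals. Relative to that median, miR-143-3p stood at -1.86 with TMM, -1.82 by library size and -2.00 by the authors' totals. The TMM call was also lost without UVA replicate 2 (adjusted p = 0.103), UVA replicate 3 (0.0584) and non-irradiated replicate 2 (0.054), where the log2 fold change was -1.65, -1.51 and -1.36.

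**Figure D2:**
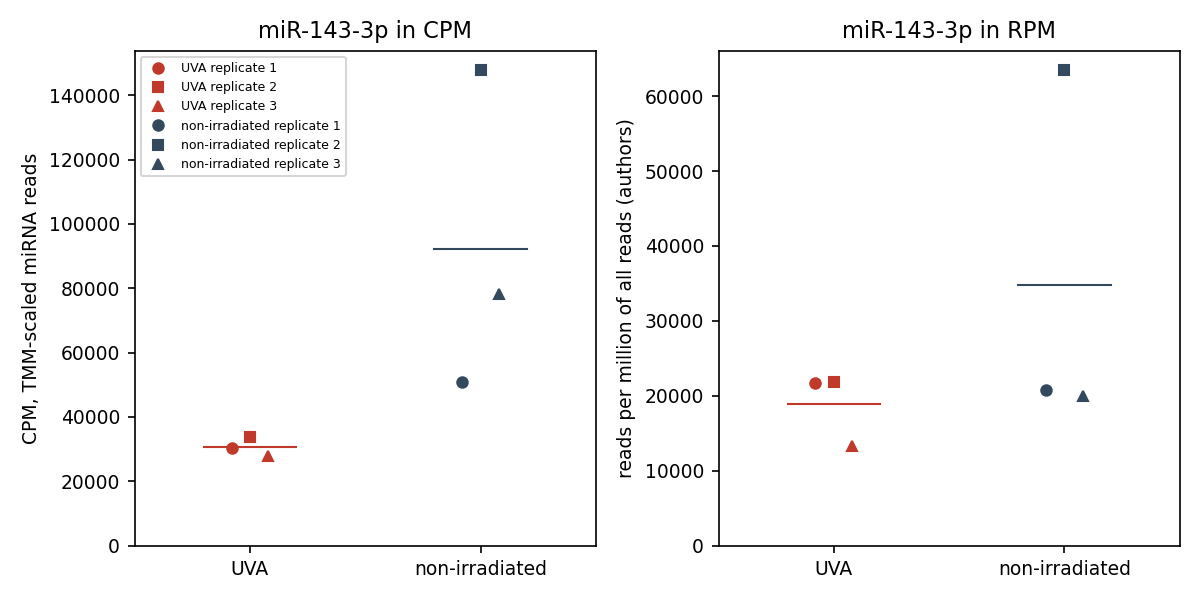
miR-143-3p by library in TMM-scaled CPM (left) and in the authors' RPM, scaled to all reads (right), with UVA libraries left of non-irradiated ones and bars at group means. The groups are apart in CPM and overlap in RPM, where non-irradiated replicate 2 is at 63545 and the other 5 libraries lie between 13344 and 21788.

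miR-145a-5p, the guide of the neighbouring hairpin, did not pass the test. It was at 655, 682 and 415 CPM in UVA replicates 1, 2 and 3, and at 407, 1340 and 2531 CPM in the non-irradiated ones. Non-irradiated replicate 1 lay below all UVA libraries and the other 2 above them. UVA skin averaged 584 ± 147 CPM and non-irradiated skin 1426 ± 1065 CPM (SD, n = 3 each), and the log2 fold change of -1.29 had an SE of 0.62 (edgeR adjusted p = 0.145). Without non-irradiated replicate 3 the log2 fold change was -0.56, and without non-irradiated replicate 1 it was -1.91 (edgeR adjusted p = 0.0734). With the authors' totals it was -0.33. Relative to the median over the tested miRNAs, miR-145a-5p stood at -1.45 by the authors' totals and at -1.56 with TMM.

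The log2 fold changes of the passenger strands had the opposite sign to those of their guides, but with TMM neither arm of miR-145a passed the test. miR-143-5p rose in UVA skin, at 75.7, 46.5 and 13.6 CPM in UVA replicates 1, 2 and 3, against 6.23, 7.79 and 12.5 CPM in the non-irradiated ones. UVA replicate 3 was barely above non-irradiated replicate 3, and the other UVA libraries were well above. These values rest on 1186, 642 and 133 reads in UVA replicates 1, 2 and 3 and 75, 102 and 86 in the non-irradiated ones. UVA skin averaged 45.3 ± 31.0 CPM and non-irradiated skin 8.85 ± 3.28 CPM (SD, n = 3 each). The log2 fold change was 2.36, with an SE of 0.70 (edgeR adjusted p = 0.0409), where higher calls made up 13.6% of the tested miRNAs. The call was lost without UVA replicate 1 (adjusted p = 0.106) or 2 (0.122) and without non-irradiated replicate 1 (0.145), 2 (0.131) or 3 (0.0648), and was kept without UVA replicate 3 (0.0104). In RPM it was 54.2, 30.0 and 6.50 in UVA replicates 1, 2 and 3 and 2.54, 3.35 and 3.20 in the non-irradiated ones. The groups stayed apart there. The share of all tested miRNAs with groups apart was counted for CPM only, at 48.3% in either direction.

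miR-145a-3p was at 251, 420 and 297 CPM in UVA replicates 1, 2 and 3, and at 182, 139 and 208 CPM in the non-irradiated ones. All UVA libraries lay above all non-irradiated ones, as 48.3% of tested miRNAs had groups that did not overlap in either direction. The log2 fold change of 0.87 (SE 0.46) did not pass the test (edgeR adjusted p = 0.178). With the authors' totals as library size it was 1.66 (SE 0.54) and was called (edgeR adjusted p = 0.0306), where 34.4% of 491 tested miRNAs were called. On that scale the median over the tested miRNAs was 1.12. Relative to the median of each scale, miR-145a-3p stood at 0.54 by the authors' totals and at 0.60 with TMM.

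**Figure D3:**
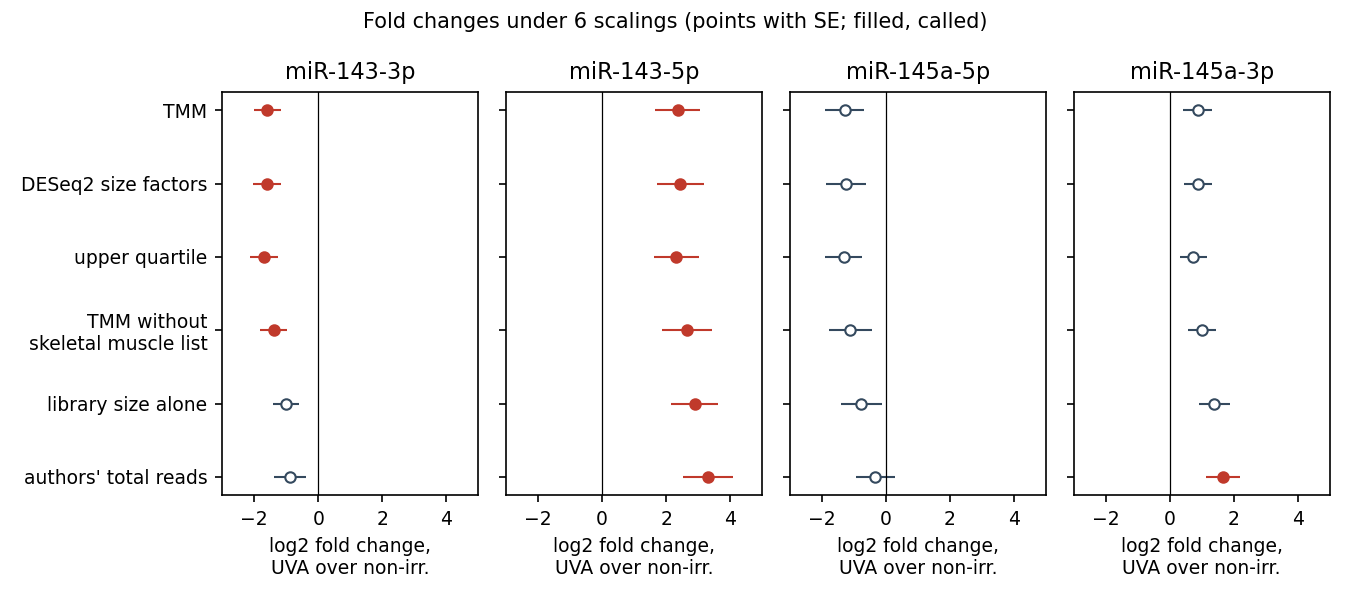
Log2 fold change (UVA over non-irradiated, points with SE) of the 4 tested members under 6 ways of scaling the libraries, filled where edgeR's adjusted p was 0.05 or lower. Each member keeps its sign throughout, with guides negative and passengers positive, and the call of miR-143-3p is absent under library size alone and under the authors' totals.

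miR-145b had 4, 16 and 12 reads in UVA replicates 1, 2 and 3 and 0 in each non-irradiated library. It averaged 0.881 ± 0.543 CPM in UVA skin (SD, n = 3). Its 32 UVA reads were 0.135% of the UVA reads of miR-145a-5p. It was not tested in the main fit. Non-irradiated replicates 1 and 2 listed few rows with 1 to 9 reads, so a 0 there may not mean that no read was found, and no fold is given.

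The next comparison took the arms of each hairpin against each other, since a ratio within a library does not depend on scaling. Of the reads of the miR-143 hairpin, miR-143-5p made up 0.249%, 0.138% and 0.049% in UVA replicates 1, 2 and 3, against 0.0123%, 0.00527% and 0.0160% in the non-irradiated ones. The guide thus kept nearly all reads of the hairpin, and every UVA library had a higher passenger share than any non-irradiated one. Such a separation was not particular to miR-143. The arm ratios of miR-10a and miR-708 also kept the groups apart, while those of let-7b overlapped. The exact permutation test on this share gave p = 0.1, its lowest possible value with 3 libraries per group. The log2 ratio of 5p to 3p reads was -9.71 ± 1.19 in UVA skin and -13.26 ± 0.84 without irradiation (SD, n = 3 each), a difference of 3.55 (SE 0.75, limma adjusted p = 1.04e-04). It was the 6th smallest p of 74 hairpins with enough reads of both arms, between miR-151 (difference 3.66) and miR-369 (-3.48), and 36.5% of those hairpins were called. Without each single library in turn the difference stayed between 3.01 and 4.19, with limma adjusted p from 3.86e-06 to 0.0209. These limma p-values rest on a variance largely shared over the hairpins, and the SE from the miR-143 libraries alone was 0.84.

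The miR-145a hairpin was far less one-sided. miR-145a-3p made up 27.7%, 38.1% and 41.7% of its reads in UVA replicates 1, 2 and 3, against 30.9%, 9.39% and 7.60% in the non-irradiated ones. Non-irradiated replicate 1 stood among the UVA libraries, and the exact permutation test on this share gave p = 0.2. The log2 ratio of 5p to 3p reads was 0.86 ± 0.47 in UVA skin and 2.68 ± 1.32 without irradiation (SD, n = 3 each), a difference of -1.82 (SE 0.75, limma adjusted p = 0.0463), the last of the 27 called hairpins by p. The call was lost without UVA replicate 2 (adjusted p = 0.141), UVA replicate 3 (0.076), non-irradiated replicate 2 (0.222) and non-irradiated replicate 3 (0.299), where the difference was -1.74, -1.64, -1.53 and -1.36. In both hairpins the less abundant arm took a larger part in UVA skin, as it did by sign in 46 of the 74 hairpins (62.2%) and by call in 15 (20.3%).

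**Figure D4:**
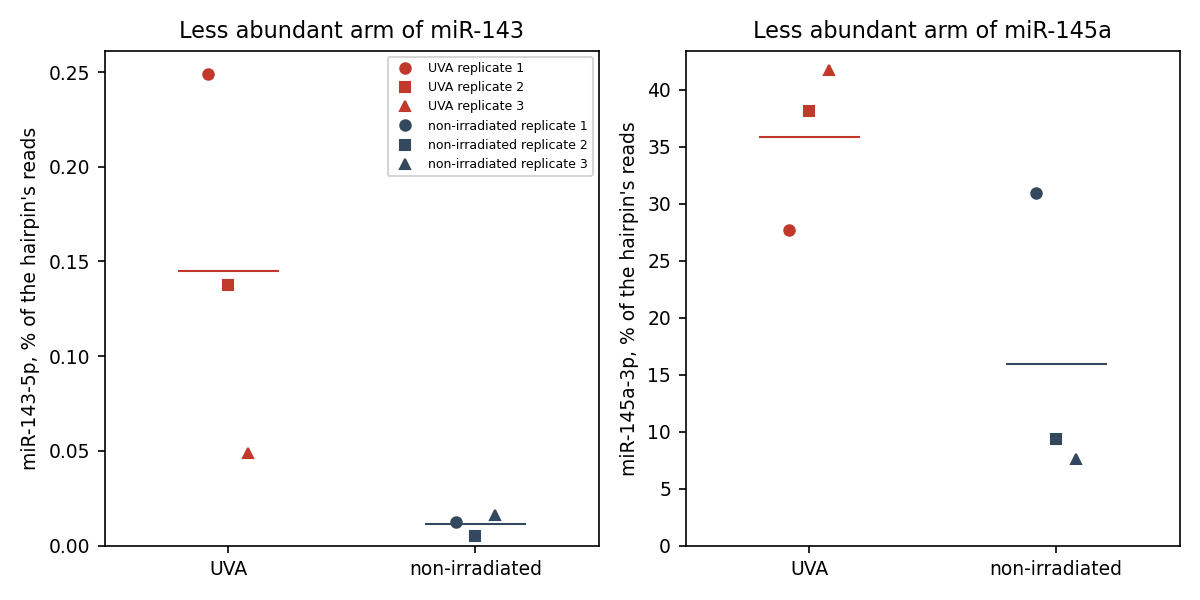
Reads of the less abundant arm as a percentage of its hairpin's reads, for miR-143 (left) and miR-145a (right), with UVA libraries left of non-irradiated ones and bars at group means. The miR-143-5p share is 0.049% to 0.249% in UVA and at most 0.016% in non-irradiated libraries, and the miR-145a-3p share of non-irradiated replicate 1 lies within the UVA range.

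**Figure D5:**
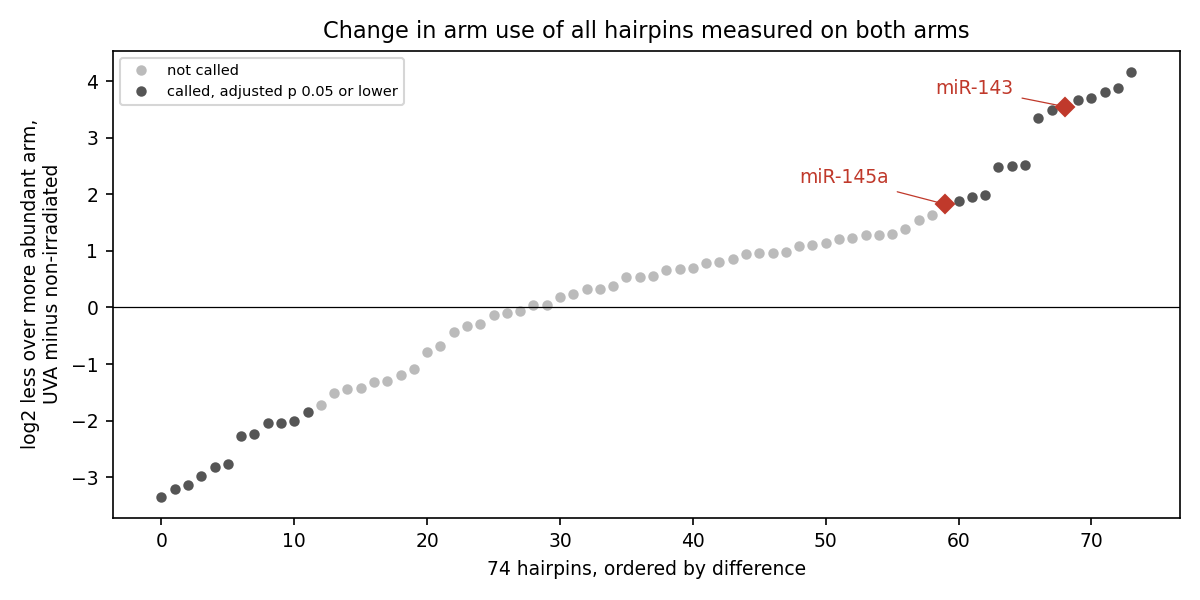
Difference in log2 less over more abundant arm, UVA minus non-irradiated, for 74 hairpins in order of size, dark where limma's adjusted p was 0.05 or lower. miR-143 (3.55) lies among the largest positive differences and miR-145a (1.82) is the smallest positive difference called.

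The hairpins were then compared with each other, to ask whether the neighbours of the cluster moved unequally. There were 46.3, 49.4 and 67.4 miR-143-3p reads per miR-145a-5p read in UVA replicates 1, 2 and 3, and 125, 110 and 30.9 in the non-irradiated ones. Non-irradiated replicate 3 had the lowest ratio of all libraries and the other non-irradiated libraries the highest. On the log2 scale the difference was -0.49 (95% interval -1.97 to 0.99, limma adjusted p = 0.693), so a ratio from 0.255 to 1.99 times that of non-irradiated skin is within its error. It ranked 37th by p of 54 pairs of neighbouring hairpins within 10 kb, of which 16.7% were called. Guides encoded by several hairpins were left out of these pairs, so some pairs hold a passenger and not all are ratios of guides. Without non-irradiated replicate 3 the difference was -1.13 (adjusted p = 0.284).

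Across the 6 libraries, log2 CPM of miR-143-3p and miR-145a-5p had a Pearson r of 0.69, given as a description of libraries that also share their group. miR-143-3p had an r of -0.62 with miR-143-5p and of -0.81 with miR-145a-3p, and the passengers had an r of 0.69 with each other. Among 154 other miRNAs with a mean of 100 CPM or more, the pattern of miR-143-3p was most like that of miR-378a-3p (r = 0.95), miR-182-5p (0.93) and miR-10b-5p (0.91). miR-182-5p was at 2122, 2202 and 2376 CPM in UVA replicates 1, 2 and 3 and at 6179, 9517 and 7187 CPM in the non-irradiated ones. For miR-145a-5p the likest were miR-140-3p (0.83), miR-10a-5p (0.77) and miR-10b-5p (0.74).

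Other miRNAs known from smooth muscle were described as a list. Of 14 tested, 5 rose, 2 fell and 7 did not pass the test, beside 13.6% higher and 8.22% lower calls over all tested miRNAs. Their median log2 fold change was 0.13, beside 0.27 over all tested miRNAs. miR-222-3p, a repressor of the cell-cycle inhibitor p27 that favours smooth muscle proliferation, was at 98.4, 248 and 530 CPM in UVA replicates 1, 2 and 3 and at 52.4, 54.4 and 52.3 CPM in the non-irradiated ones (log2 fold change 2.46, SE 0.64, edgeR adjusted p = 0.0242). miR-34a-5p, a p53 target that restrains proliferation, had 112 ± 60.6 CPM in UVA skin, against 21.2 ± 9.92 CPM without irradiation (n = 3 each, log2 fold change 2.39, edgeR adjusted p = 0.0261). The others that rose were miR-221-3p, miR-31-5p and miR-146a-5p. miR-10a-5p of the Hoxb cluster fell to 8154 ± 3437 CPM in UVA skin, against 27239 ± 10003 CPM in non-irradiated skin (n = 3 each, log2 fold change -1.74, edgeR adjusted p = 0.0242), and miR-1a-3p also fell. miR-21a-5p, miR-26a-5p, miR-24-3p, miR-23b-3p, miR-133a-3p, miR-195a-5p and miR-322-5p did not pass the test, with log2 fold changes from -0.59 (miR-195a-5p) to 1.00 (miR-23b-3p). Of the list, 4 rather than 7 were called when UVA replicate 2, non-irradiated replicate 1 or non-irradiated replicate 2 was left out in turn, and 3 when non-irradiated replicate 3 was left out.

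Marker miRNAs of other cell types were summed per library, and the sums of the skeletal muscle and fibroblast lists separated the groups. The skeletal muscle list summed to 41913 to 58526 CPM per UVA library and 318631 to 479274 CPM per non-irradiated library, with 1 of 7 tested rows lower (miR-1a-3p), 1 higher (miR-133b-3p) and 5 not called, beside 8.22% lower and 13.6% higher calls over all tested miRNAs. miR-1a-3p averaged 36976 ± 17160 CPM in UVA skin, against 362204 ± 70709 CPM without irradiation (SD, n = 3 each), where it made up most of the sum. With that list removed before scaling, the change of miR-143-3p was -1.39 on the log2 scale (SE 0.41, edgeR adjusted p = 0.043) and that of miR-143-5p was 2.65 (SE 0.78, edgeR adjusted p = 0.0416). The fibroblast list summed to 19107 to 28739 CPM in UVA and 2816 to 4234 CPM in non-irradiated libraries, with 3 of 5 rows higher, none lower and 2 not called, where 13.6% of all tested miRNAs were called higher. The row shared by miR-199a-3p and miR-199b-3p made up most of the sum in UVA skin. It averaged 17603 ± 4986 CPM there, against 1800 ± 319 CPM without irradiation (SD, n = 3 each). The rows not called were miR-199b-5p (log2 fold change 0.34, edgeR adjusted p = 0.753) and miR-214-3p (1.14, edgeR adjusted p = 0.0824). The part of the fibroblast list in the results above was not tested. The endothelial list, which marks the other main cell type of vessel walls, overlapped at 14102 to 25741 CPM in UVA and 20480 to 26427 CPM in non-irradiated libraries. Its guide miR-126a-3p made up nearly all of the sum, which thus describes little beyond that row. miR-126a-3p did not pass the test (log2 fold change -0.20, edgeR adjusted p = 0.70). The other arm of that hairpin, miR-126a-5p, fell by 2.12 on the log2 scale (SE 0.56, edgeR adjusted p = 0.0255). The summed levels of the epithelial, leukocyte and erythroid lists overlapped as well, with 1 of 7 rows higher, 1 of 5 lower and 0 of 4 called by edgeR, beside 21.8% of all tested miRNAs called in either direction, and no row of any of these lists was at 0 in all libraries.

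In the authors' deposited table, miR-143-3p had a log2 fold change of -1.56 (p = 0.043, q = 0.354) and miR-143-5p of 2.48 (p = 0.0302, q = 0.295). The authors' deposited table gives -1.21 (q = 0.733) for miR-145a-5p, 0.92 (q = 0.645) for miR-145a-3p and an infinite value (q = 0.311) for miR-145b. None of the 5 reached a q of 0.05 there.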

How the data were processed

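The deposited read counts per mature miRNA are whole numbers and were used as they stand. The labels name the mirVana and TruSeq Small RNA kits. The submitters' processing notes list Bowtie, with no version, and the sources used here give neither genome build nor miRNA release. Counts over the deposited RPM values yield 1 total per library, used as the authors' total reads. Per the file headers, the authors supplied the log2 fold change, the ratio (fold change), the p-value, the q-value and the mean normalized signal of each group, with no tool named. Sequence length was read from the deposited tables.

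The main test was edgeR's (4.0.16, R 4.3.3) quasi-likelihood F test on TMM-scaled counts after filterByExpr, with Benjamini-Hochberg adjustment over 499 miRNAs and a threshold of 0.05. Dividing the log2 fold change by the square root of F gave its SE. Arm ratios and ratios between neighbouring hairpins were tested with limma 3.58.1 on log2 of reads plus 0.5, with 10 or more reads of each row in each library. Each hairpin of a pair was represented by the most abundant row that matched that hairpin alone. Guides encoded by several hairpins were thus left out, and some pairs hold a passenger, such as miR-24-1-5p beside miR-27b-3p. In the fit of arm ratios, limma drew the variances strongly to a shared value (82.5 prior degrees of freedom). The SE of the arm difference from miR-143's own libraries was 0.84 and from miR-145a's 0.81. Hairpins were matched by sequence to GENCODE M21 (GRCm38). Exact Clopper-Pearson 95% intervals and the floor of 3 counts cover only the counting error of reads within a library. Reads carry no molecular identifiers, so copies of the same molecule cannot be told apart and that error may be larger. Each step was checked on simulated data. miRNAs set to differ by a factor of 2 passed edgeR's test in only 6.49% of cases. The rate rose to 51.0% with a factor of 4 and to 86.7% with a factor of 8, against 1.78% where nothing was changed. Real differences by a factor of 2 would thus mostly be missed. With a factor of 8, 93.3% of hairpins passed for arm use and 77.3% of neighbour pairs. Among unchanged ones, 4.55% of hairpins and 0% of pairs passed.

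The members and lists were chosen with earlier results of these data known. miR-145a-3p was added because the rule matched it; its fits and the miR-145a arm comparison were added after seeing the data. The text names all members, the listed miRNAs, the 3 most alike in pattern for each guide and the arm-use ranks beside miR-143. Alternatives were DESeq2 1.42.0 and limma-voom, other scalings, no filter, a replicate block and leaving out libraries. The members' sequences are not reported here.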

Additional observations from a re-analysis of the deposited data

How the results depend on the processing

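The signs of the 4 tested members and of their ratios held in every alternative tried. The miR-143-3p call was lost by library size alone (-1.01), by the authors' totals (-0.87) and without both non-irradiated replicates 1 and 2 (-1.69), and the value ranged from -2.00 to -1.36 as single libraries were left out. The miR-143-5p call was lost without both of these libraries (1.65) and ranged from 1.72 to 2.80 with single libraries left out. miR-145a-3p was called with the authors' total reads (1.66, or 0.54 relative to the median over the tested miRNAs). As single libraries were left out, miR-145a-5p ranged from -1.91 to -0.56, miR-145a-3p from 0.42 to 0.95, the miR-145a arm difference from -2.58 to -1.36 and the pair ratio from -1.13 to -0.12. The miR-145a arm difference of -1.82 kept its size but lost its call with 1 or more reads per row (limma adjusted p = 0.0717) and with limma's trend and robust options (0.0759). The number of called miRNAs, 109 with edgeR, was 169 with the authors' total reads, 191 with DESeq2, 1 without both non-irradiated replicates 1 and 2, and 38 to 124 with single libraries left out, and that of the smooth muscle list was 0 and 3 to 6 in the last 2 cases. The share of the 4 members differed by -3.83 percentage points, by -6.98 of miRNA reads without the skeletal muscle list, by -1.59 of the authors' total reads, and by -5.52 to -1.95 with single libraries left out. The cause of these changes was not tested.

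The labels do not say whether same-numbered replicates share more than a number. Their deviations correlated at 0.085, -0.076 and -0.027, and those of differently numbered replicates at -0.103 to 0.132. With 3 libraries per group, such values cannot settle whether replicates were paired. With the replicate block edgeR called 106 miRNAs, the log2 fold changes were -1.45 for miR-143-3p (adjusted p = 0.0184), 2.16 for miR-143-5p (0.0716), -0.97 for miR-145a-5p and 0.85 for miR-145a-3p, and the arm differences with the block were 3.55 for miR-143 (limma adjusted p = 0.0116) and -1.82 for miR-145a (0.13). miR-145b, with few reads, did not pass the filter, and without a filter its edgeR adjusted p was 0.0949. That value rests on counts of 0 in non-irradiated replicates 1 and 2 that may not mean that no read was found, so nothing is drawn from it.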
